A study of Mus musculus with 16 samples.

Results

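The 792 regions described here carried an H3K4me3 peak in both libraries from 24-month-old mice and in neither library from 4-month-old mice. They were found by merging the peaks of the 4 H3K4me3 lists wherever they overlapped by at least 1 bp or touched, which gave 20660 merged regions, so that these old-only regions made up 3.83% of the total. They were chosen by the presence of listed H3K4me3 peaks: lengths, scores and presence of H3K4me3 are therefore given as a description, and tests are given only for H3K27me3 and H3K36me3, whose lists had no part in the choice. Absence from the young lists means that no peak was listed there. Read coverage was not used here, so a weak signal below the young peak lists cannot be told apart from no signal.

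Trimethylation of histone H3 at lysine 4 is laid down by the Set1 and MLL methyltransferase complexes and marks the promoters of active genes and of genes held ready for activation. H3K27me3 is laid down by Polycomb repressive complex 2 over silent developmental genes, where it can lie over H3K4me3 in a state called bivalent. H3K36me3 is placed by SETD2 along the bodies of genes while they are transcribed, so it usually starts downstream of a promoter rather than over it. In hematopoietic stem cells, which give rise to all blood lineages, these marks are studied for how the stem cell state and lineage genes are held open or closed as the animals age.

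The cells were primary stem cells from the bone marrow of wild-type C57BL/6 mice, sorted as SP-KSL-CD150+, that is, side population cells with the Kit-positive, Sca-1-positive, lineage-negative phenotype and CD150 on the surface. The old group was 24 months of age and the young group 4 months. Each age had 3 libraries for H3K27me3 (replicates 1 to 3), 3 for H3K36me3 (replicates 4 to 6) and 2 for H3K4me3 (replicates 7 and 8), 16 in all. Each library is labelled as the technical replicate of a biological replicate with a number of its own, and the labels do not say how many animals were pooled, so the p-values below measure only the spread between these libraries, part of which may be technical. The titles also carry a number from 16 to 21 that the labels do not explain, and values within a number found at both ages are given beside the pooled ones. The sort was not checked against marker genes, because no gene positions of the mm9 build were used here.

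A pair of young libraries stood apart from the rest. Young H3K27me3 replicate 1 listed 46985 islands over 169 Mb, within the range of the other lists, but touched only 1.48% of the H3K4me3 regions found in all 4 libraries, where the other H3K27me3 libraries touched 12.5% to 15.3%. Young H3K36me3 replicate 4 listed 6399 peaks over 5.9 Mb, against 39362 to 84437 peaks over 41.6 to 138 Mb in the other H3K36me3 libraries. Results are given with and without these libraries, and a region is called marked when at least 3 of the remaining 5 libraries touched it. The old H3K4me3 lists held 18675 and 19923 peaks and the young ones 16314 and 16258. The lowest score listed was 80.3 and 80.04 in the old lists and 82.9 and 91.91 in the young ones. With every list cut to the same number of its highest-scoring peaks 224 regions were found in both old and no young libraries, against 272 in both young and no old libraries. Of those 224, 218 overlapped one of the 792. The excess of old-only regions over young-only regions (48, or 0.232% of all regions, as the lists stand) was thus not seen at equal list length. With peaks at or above the 25th percentile of score in each list, 1044 regions were old-only and 3 young-only. That limit drops the same share of every list, so the old lists stayed the longer ones and list length was not made equal.

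The old-only regions were short and ranked low within their own lists. Their median length was 811 bp, with quartiles of 679 and 995.2 bp and a range of 343 to 3131 bp, against a median of 2023 bp for the 14489 regions found in all 4 libraries. Of the 792, 597 (75.4%) were at most 1000 bp long and 3 exceeded 2000 bp, a length that 51.2% of the regions in all 4 libraries exceeded. The peaks covered a median of 500.5 bp in old replicate 7 and 716 bp in old replicate 8. The peak score is the authors' own and its scale is not given in the sources used here. Its median over the old-only regions was 242 in old replicate 7 and 250.7 in old replicate 8, while 3100, the value at which 46.9% to 59.0% of each list's peaks were tied, was the median over the regions in all 4 libraries in each list. As the share of a list's peaks with a lower score, averaged over the old lists, the rank of the old-only regions had a median of 15.02 percent, with a range of 0.176 to 50.55, against 50.55 in the regions found in all 4 libraries.

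**Figure D1:**
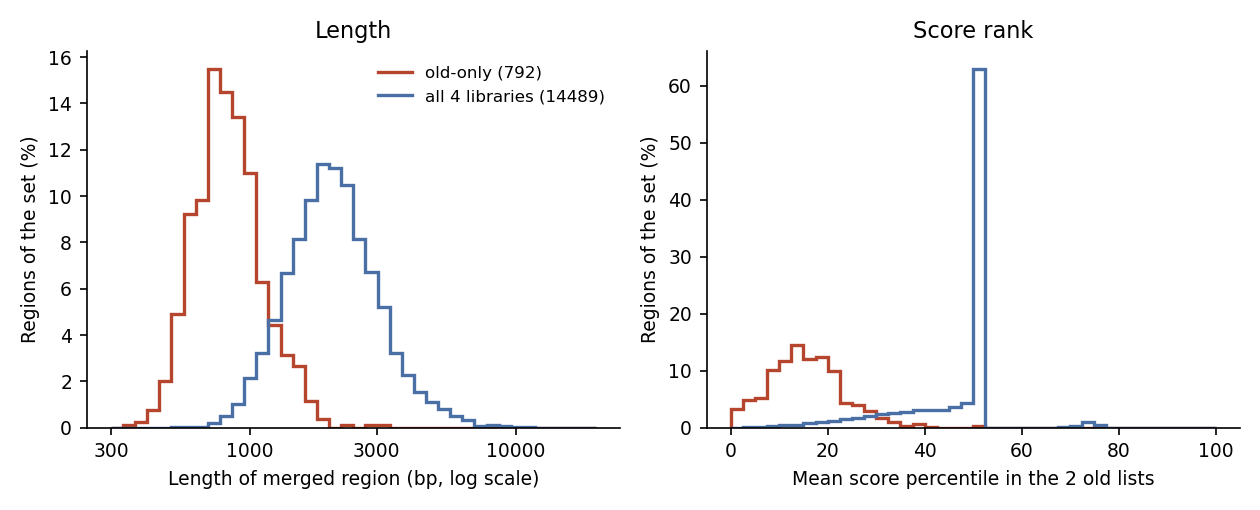
Distribution of the 792 old-only H3K4me3 regions and of the 14489 regions found in all 4 libraries by length of the merged region (left, log axis, bp) and by mean score percentile in the old lists (right), each as percent of its set. The old-only regions peak below 1000 bp and below the 25th percentile, and the spike near 50 holds the regions tied at a score of 3100.

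By the rule each of the 792 regions holds a peak of both old lists, so their overlap shows no agreement between the old libraries: 2294 further regions were found in old replicate 8 alone and 677 in old replicate 7 alone. Within the 792, the peaks of the old libraries shared a median of 461 bp, which was 99.6% of the shorter peak. The peak was longer in old replicate 8 in 656 regions and in old replicate 7 in 134. The whole list of replicate 8 also covered more, at 32.5 Mb against 27.2 Mb in replicate 7. Across the 792 regions the score percentile had a Pearson correlation of 0.35 between the old lists and the log2 covered length one of 0.41, as a description over regions that share a library and its depth. Few regions were strong in both libraries. A score of 1000 or more was reached in both by 7 regions, of 500 or more by 45 and of 200 or more by 363.

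The nearest region found in all 4 libraries was a median of 27038.5 bp away from an old-only region, against 22438 bp over all 6171 merged regions not found in all 4 libraries and 22196 bp over the 48 young-only ones. The nearest young H3K4me3 peak lay a median of 22146 bp away. Of the 792, 71 (8.96%) were within 1 kb of a region found in all 4 libraries, 96 (12.1%) at 1 to 5 kb, 319 (40.3%) at 5 to 50 kb and 306 (38.6%) farther than 50 kb. Near the limit of the rule, chr11:98637243-98637717 was kept although a peak of young replicate 8 began 9 bp away, and chr15:13102459-13103974 although one of young replicate 7 lay 43 bp away. Just outside it, chr19:34736566-34737205 had 409 bp in old replicate 7 and 640 bp in old replicate 8, and was dropped for a 330 bp peak in young replicate 8. The region chr3:95231183-95232211, with 358 and 949 bp in the old libraries, was dropped for 353 bp in young replicate 8.

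The longest old-only region by mean covered length was chr9:92170215-92173103, with 2734 bp in old replicate 7 and 2858 bp in old replicate 8 and none in young replicates 7 and 8. It reached a score of 3100 in both old lists. No H3K27me3 island touched the 5 kb on either side in any library, while H3K36me3 covered 792, 892 and 2232 bp of that window in old replicates 4, 5 and 6, against 0, 510 and 882 bp in young replicates 4, 5 and 6. The ranges of the ages overlapped. The only other old-only region at 3100 in both lists was chr6:149514077-149515351, with 1259 and 1164 bp in the old libraries. It lay 154968 bp from the nearest region found in all 4 libraries. Within 5 kb of it, H3K27me3 was listed only in young replicate 1 (2724 bp) and H3K36me3 only in young replicate 4 (715 bp), the libraries that stood apart.

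Other strong old-only regions differed in the marks around them. At chr5:71486371-71487960, where H3K4me3 covered 1446 and 1502 bp in the old libraries, an H3K27me3 island lay over the whole 1590 bp in old replicates 1, 2 and 3 and in young replicates 2 and 3, and over 1230 bp in young replicate 1. It was thus H3K27me3-marked at both ages, with H3K4me3 listed at 24 months. The regions chr12:62623471-62624795 and chr2:54288245-54289932 also lay whole under H3K27me3 in old replicates 1, 2 and 3 and in young replicates 2 and 3, 2301827 and 349901 bp from the nearest region found in all 4 libraries. At chr1:140577388-140579148, with 1380 and 1525 bp of H3K4me3 in the old libraries, H3K36me3 covered 1704, 1027 and 1548 bp within 5 kb in old replicates 4, 5 and 6, against 0, 244 and 0 bp in the young ones. All 3 old values there were above all 3 young values, but this region was not called in the fit described below. The region chr7:134228220-134231350, with 820 and 3131 bp in the old libraries, and chr13:95151630-95153178, with 686 and 1549 bp, had neither mark within 5 kb in any library.

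H3K27me3 lay over 245 of the 792 regions (30.9%) in at least 3 of 5 libraries, against a background of 16.1% of all merged regions and 13.4% of the regions found in all 4 libraries. It lay over 201 of them (25.4%) in all 5 libraries, where the background over all merged regions was 12.2%, and over none of the 5 in 499 (63.0%; background 78.4%). H3K36me3 was scarce: it touched 8 regions (1.01%; background 2.57%) and came within 5 kb of 98 (12.4%; background 31.4%). Of those 98, 16 had it on both sides and 77 on 1 side in at least 3 libraries, and the remaining 5 on no single side in that many. H3K27me3 over the region and H3K36me3 within 5 kb were found together at 7 (0.884%), close to the 0.92% of all merged regions. Neither mark came within 5 kb in any of the 5 libraries at 297 of the 792 (37.5%), against 30.6% of all merged regions and 26.2% of the regions found in all 4 libraries.

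By library, H3K27me3 touched 29.5%, 31.2% and 30.7% of the 792 in old replicates 1, 2 and 3, against 3.66%, 31.8% and 32.6% in young replicates 1, 2 and 3. Young replicates 2 and 3 lay just above all old libraries and young replicate 1 far below them. The means were 30.5% ± 0.841 in old libraries and 22.7% ± 16.5 in young libraries (SD, n = 3 each; two-sided exact permutation test, p = 1.0, with 0.1 the smallest p this design allows). Without young replicate 1 the young mean was 32.2% ± 0.536 (SD, n = 2), so that the old mean was 1.73 percentage points lower (exact permutation test, p = 0.2). Within title number 18 the share was 31.2% in the old library and 31.8% in the young one, and within number 20 it was 30.7% in the old library and 32.6% in the young one. No change of this share with age was detected, and 201 of the 245 marked regions carried H3K27me3 in all 5 libraries.

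**Figure D2:**
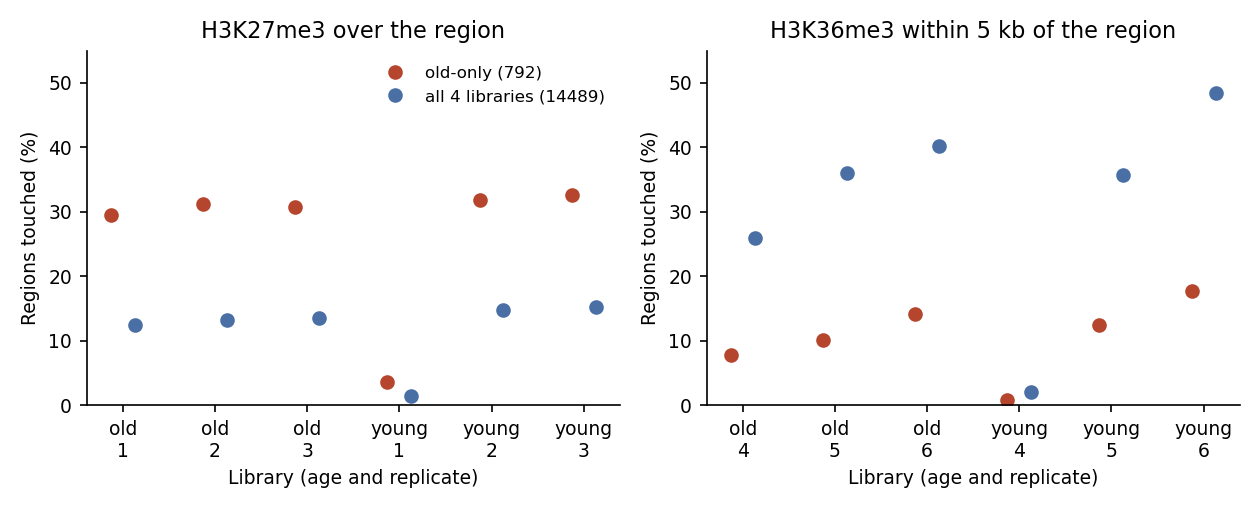
Percent of the 792 old-only regions and of the 14489 regions found in all 4 libraries touched by H3K27me3 (left) or with H3K36me3 within 5 kb (right), with 1 point per library and set. Old-only regions lie between 29.5% and 32.6% for H3K27me3 in 5 libraries and above the common regions in all 6, and below them for H3K36me3 in all 6. Young replicates 1 and 4 stand far below the others.

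H3K36me3 within 5 kb was found at 7.83%, 10.1% and 14.1% of the 792 in old replicates 4, 5 and 6, against 0.758%, 12.4% and 17.7% in young replicates 4, 5 and 6. The means were 10.7% ± 3.2 in old libraries and 10.3% ± 8.65 in young libraries (SD, n = 3 each; exact permutation test, p = 1.0). Without young replicate 4 the young mean was 15.0% ± 3.75 (SD, n = 2), with the old mean 4.34 percentage points below it (exact permutation test, p = 0.3). Within title number 16, whose young library is replicate 4, the share was 7.83% in the old library and 0.758% in the young one, and within number 18 it was 14.1% in the old library and 12.4% in the young one. Directly over the regions H3K36me3 was rare at both ages, at 0.926% ± 0.386 in old libraries and 1.22% ± 1.07 in young libraries (SD, n = 3 each; exact permutation test, p = 0.8). The 4 comparisons of old with young shares each had an adjusted p of 1.0 after Benjamini-Hochberg adjustment.

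Against the regions found in all 4 libraries, the old-only regions had H3K27me3 over them more often in each of 6 libraries. The share at old-only minus that at common regions was 17, 17.9 and 17.2 percentage points in old replicates 1, 2 and 3, against 2.18, 17 and 17.3 in young replicates 1, 2 and 3. The mean share was 26.6% ± 11.3 over the old-only regions and 11.8% ± 5.17 over the common ones (SD, n = 6), a difference of 14.8 percentage points (two-sided exact permutation test by sign changes over libraries, p = 0.0312, the smallest it allows; adjusted p = 0.0312 over 4 comparisons). Without young replicate 1 the difference was 17.3 points in 5 libraries, where the smallest p is 0.0625. H3K36me3 within 5 kb was less frequent at the old-only regions in each of 6 libraries, with 10.5% ± 5.84 against 31.4% ± 16.1 at the common ones (SD, n = 6), a difference of -20.9 points (exact permutation test, p = 0.0312). The 5 kb comparison with common regions was added after the data were seen. Neither difference was shown to change with age: for H3K27me3 over the regions the old minus young value was 5.2 points (exact permutation test, p = 0.4), or 0.209 without young replicate 1 (exact permutation test, p = 0.8). For H3K36me3 within 5 kb it was -4.93 points (exact permutation test, p = 0.8), or 3.66 without young replicate 4 (exact permutation test, p = 0.6).

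These differences went with score rank. The old-only regions were cut into 4 score classes of 198 by mean score percentile, and the regions found in all 4 libraries were placed in the same ranges, which left 85, 143 and 258 of them in the lower 3 classes and 14003 in the top one. Without young replicate 1, H3K27me3 lay over 37.1% ± 1.05 of the old-only regions of the lowest class and over 52.5% ± 2.29 of the common regions of that score (SD, n = 5 libraries). In the second class the shares were 35.2% ± 1.27 over old-only and 43.2% ± 1.15 over common regions, and in the third 27% ± 2.07 over old-only and 40.5% ± 1.95 over common regions. In these 3 classes the old-only regions were below the common ones in 5 of 5 libraries (exact permutation test, p = 0.0625 each, the smallest for n = 5; adjusted p = 0.0833 over 16 comparisons). In young replicate 1 they were not below. Its shares, lowest class first, were 3.54%, 5.05% and 3.54% over old-only and 3.53%, 1.4% and 2.71% over common regions. In the top class, without young replicate 1, the old-only share was 25.5% ± 1.91 and the common share 12.9% ± 1.14, but the common regions as a whole had a median percentile of 50.55, the highest value of any old-only region. Without young replicate 1, the higher H3K27me3 share of the old-only regions as a whole was thus not seen beside common regions of like score in the lower 3 classes. In the top class, where it was seen, the sets were not matched for score.

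**Figure D3:**
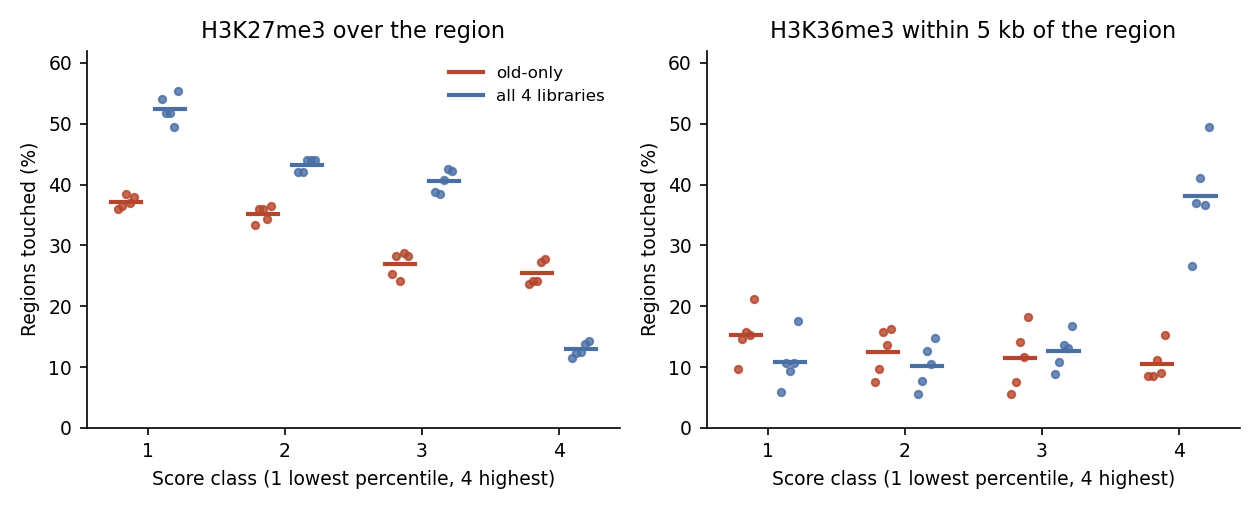
Percent of old-only regions and of regions found in all 4 libraries with H3K27me3 over them (left) or H3K36me3 within 5 kb (right), by class of the old-only score percentiles, 1 the lowest, without the libraries that stood apart. Points are 5 libraries and bars their means. In the lower 3 classes the old-only regions have less H3K27me3 than common regions of like score. The H3K36me3 means there are 15.3%, 12.5% and 11.4% at old-only and 10.8%, 10.2% and 12.6% at common regions, lowest class first.

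For H3K36me3 within 5 kb, the same split gave 15.3% ± 4.12 at old-only and 10.8% ± 4.27 at common regions of the lowest class without young replicate 4 (SD, n = 5). The second class had 12.5% ± 3.79 at old-only and 10.2% ± 3.65 at common regions, and the third 11.4% ± 5.06 at old-only and 12.6% ± 2.93 at common regions. The old-only regions were higher in 5 of 5 libraries in the lowest and the second class (exact permutation test, p = 0.0625 each, adjusted p = 0.0833) and in 2 of 5 in the third (exact permutation test, p = 0.312). With young replicate 4 included they were higher in 5 of 6 libraries in the lowest and the second class and in 2 of 6 in the third. The deficit of H3K36me3 was seen, among the classes, in the top one, with 10.5% ± 2.8 at old-only and 38.2% ± 8.29 at common regions without young replicate 4. The 1049 regions found in both old and 1 young library, the closest to the old-only ones by rule, were close to them in H3K27me3 over the region and H3K36me3 within 5 kb. H3K27me3 lay over 31.2% ± 1.15 of the old-only regions and 30.7% ± 1.59 of those 1049 without young replicate 1 (SD, n = 5; difference 0.504 points, exact permutation test, p = 0.188), and H3K36me3 was within 5 kb of 12.4% ± 3.78 and 12.2% ± 3.82 without young replicate 4 (difference 0.222 points, exact permutation test, p = 0.688). H3K36me3 over the region was found at 1.07% ± 0.739 of the old-only regions and 0.794% ± 0.623 of the 1049 (SD, n = 6), higher in the old-only regions in 6 of 6 libraries (exact permutation test, p = 0.0312; adjusted p = 0.25 over 8 comparisons).

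The marks also went with the distance to common H3K4me3. H3K27me3 lay over 14 of 71 old-only regions within 1 kb of a region found in all 4 libraries (19.7%), 26 of 96 at 1 to 5 kb (27.1%), 78 of 319 at 5 to 50 kb (24.5%) and 127 of 306 farther out (41.5%). H3K36me3 within 5 kb ran the other way, with 24 of 71 (33.8%), 22 of 96 (22.9%), 40 of 319 (12.5%) and 12 of 306 (3.92%). Other merged regions were not counted by distance, so neither trend is shown to be particular to the old-only regions. Beside a common region the 5 kb window also takes in its surroundings, and 38.0% of common regions had H3K36me3 within 5 kb. Whether this bears on the H3K36me3 trend was not tested. The H3K27me3-marked old-only regions were a median of 52850 bp from a region found in all 4 libraries and the 297 with neither mark within 5 kb 26508 bp. For the 83 with H3K36me3 within 5 kb but not over them, and without H3K27me3 within 5 kb, each by the rule of at least 3 of 5 libraries, it was 6519 bp. Score rank differed little between the distance classes, with medians of 13.2, 14.5, 14.4 and 16.1 percent from near to far.

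**Figure D4:**
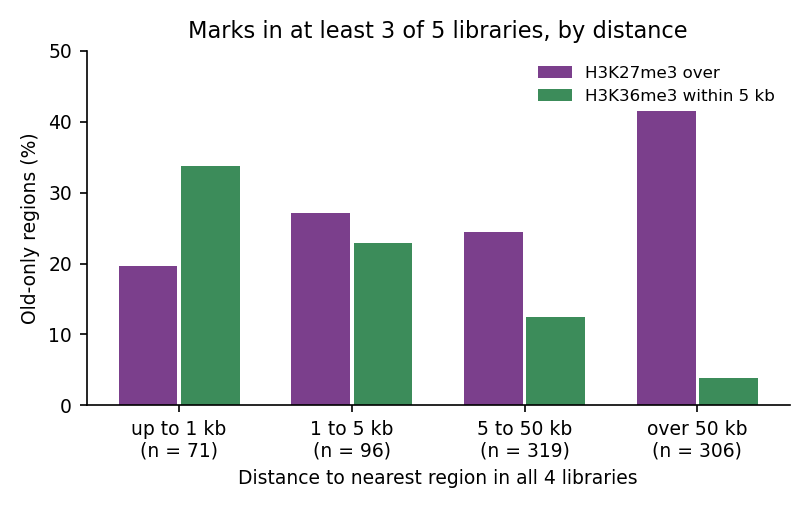
Percent of old-only regions with H3K27me3 over them or H3K36me3 within 5 kb, each in at least 3 of 5 libraries, by distance to the nearest H3K4me3 region found in all 4 libraries. H3K27me3 is most frequent beyond 50 kb (41.5% of 306) and H3K36me3 within 1 kb (33.8% of 71).

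The stretches of H3K27me3 listed in at least 3 of 5 libraries formed 24608 domains, and 244 old-only regions lay in 236 of them. Domains over old-only regions were 10400 bp long in the median, and those over regions found in all 4 libraries 7400 bp. Of the 244, 195 lay in a domain with no region found in all 4 libraries and 49 (20.1%) shared the domain with one. No such count is given here for other regions not found in all 4 libraries, so this is not shown to be particular to the old-only regions. The broadest island ran over chr11:96032277-96032724, where H3K4me3 covered 368 and 333 bp in the old libraries. The island over it was 83000, 94400 and 56800 bp long in old replicates 1, 2 and 3, against 0, 84000 and 68000 bp in young replicates 1, 2 and 3. At chr7:77495539-77496428 the island was 58400, 70800 and 59000 bp long in the old libraries, against 3000, 60400 and 55000 bp in the young ones. The old and the young values overlapped at both. The H3K4me3 peak there covered 436 and 890 bp.

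The 8 old-only regions touched by H3K36me3 in at least 3 of 5 libraries were all touched at both ages. At chr1:173163599-173164704 it was found in all 5, over 18, 507 and 63 bp in old replicates 4, 5 and 6, against 0, 353 and 387 bp in young replicates 4, 5 and 6. At chr8:125976033-125978467 it covered 186, 506 and 388 bp in the old libraries, against 0, 87 and 0 bp in the young ones, so that all old values over the region were above all young ones. Within 5 kb of it the ages overlapped, with 3079, 5506 and 5908 bp in the old libraries, against 0, 2589 and 5613 bp in the young ones. At chr8:91150918-91152255 it covered 0, 0 and 1119 bp in the old libraries, against 0, 669 and 1338 bp in the young ones. The others were chr8:125217407-125218847, chr2:156002579-156003285, chr1:75211333-75211868, chr11:116255868-116256443 and chr11:11925560-11926396, and the last was also under H3K27me3 in 4 of 5 libraries.

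To ask whether H3K27me3 around single regions differed with age, the bases under islands within 5 kb were fitted with limma on log2(bp + 200) over all merged regions covered in at least 2 libraries. With all 6 libraries 0 of 5325 regions were called at an adjusted p under 0.05 (background 0.0%; lowest adjusted p 0.668, limma with Benjamini-Hochberg adjustment). At an unadjusted p under 0.05 there were 185 (3.47%), of which 11 were among the 318 old-only regions tested. The other 474 old-only regions had too little H3K27me3 to enter. Without young replicate 1, 274 of 5272 were called (5.2%), 200 lower in old libraries (3.79%) and 74 higher (1.4%). Of the 318 old-only regions, 12 were called lower in old libraries (3.77%) and 2 higher (0.629%), shares at or below the background. All 14 had no H3K27me3 listed either in the 3 old libraries or in young replicates 2 and 3, as had 248 of the 274. Their fitted fold changes thus depend on the added 200 bp and are not given. Their p-values rest in part on the lack of any spread among the libraries at 0, which follows from the limit of the lists. They are therefore no measure of how strong a difference was. With 50 bp added 17 old-only regions were called, and with 1000 bp 7.

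At the 12 lower regions no island came within 5 kb in any old library. At chr8:74216417-74217953, where H3K4me3 covered 691 and 1537 bp in the old libraries, H3K27me3 covered 0, 0 and 0 bp of the window in old replicates 1, 2 and 3, against 4800 and 5000 bp in young replicates 2 and 3, and lay over the whole region in both of these (limma, adjusted p = 0.0277 without young replicate 1). At chr15:101309260-101310057 the young values were 6600 and 5000 bp, and at chr13:48826206-48827382, where H3K4me3 covered 1031 and 580 bp in the old libraries, they were 9582 and 4582 bp. At chr10:79380774-79382606, among the 8 longest old-only regions with 1573 and 1833 bp, the young values were 2600 and 3400 bp. Young replicate 1 also had 0 bp at these 4, so the old libraries did not lie apart from it. The 2 regions called higher were chr17:21890528-21891192, with 9400, 4000 and 5792 bp in old replicates 1, 2 and 3, against 1273, 0 and 0 bp in young replicates 1, 2 and 3, and chr8:116893089-116893640, with 3312, 2912 and 6112 bp in the old libraries, against 0, 0 and 0 bp in the young ones. At both, all 3 old values were above all 3 young values.

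Some uncalled regions had differences as large. At chr2:164229328-164230737 H3K27me3 covered 2137, 0 and 0 bp of the window in old replicates 1, 2 and 3, against 0, 8473 and 9673 bp in young replicates 1, 2 and 3. At chr8:107799853-107800996 it covered 1200, 0 and 0 bp in the old libraries, against 0, 8548 and 5948 bp in the young ones. Old replicate 1 and young replicate 1 crossed the other libraries of their age at both (limma without young replicate 1, adjusted p = 0.331 and 0.219). Higher in the old libraries were chr4:85699274-85700315, with 3800, 8400 and 6400 bp in the old libraries, against 0, 0 and 400 bp in the young ones, and chr14:49472223-49473056, with 9434, 6056 and 8256 bp in the old libraries, against 0, 2056 and 2200 bp in the young ones. At these the ages did not overlap, young replicate 1 included, but neither passed the threshold (limma without young replicate 1, adjusted p = 0.0798 and 0.0654). At chr14:49472223-49473056 an island lay over the whole 834 bp in all 3 old libraries and over none of it in the 3 young ones, so that H3K4me3 and H3K27me3 were both listed there at 24 months and neither at 4 months. The same fit for H3K36me3 called 0 of 7654 regions (background 0.0%; lowest adjusted p 1.0; 13 at an unadjusted p under 0.05, 0.17%). It called 0 of 7634 without young replicate 4, where 290 (3.8%) had an unadjusted p under 0.05. Only 120 of the old-only regions entered either H3K36me3 fit. Of these, 0 had an unadjusted p under 0.05 with all 6 libraries and 6 (5%) without young replicate 4, all 6 lower in old libraries.

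**Figure D5:**
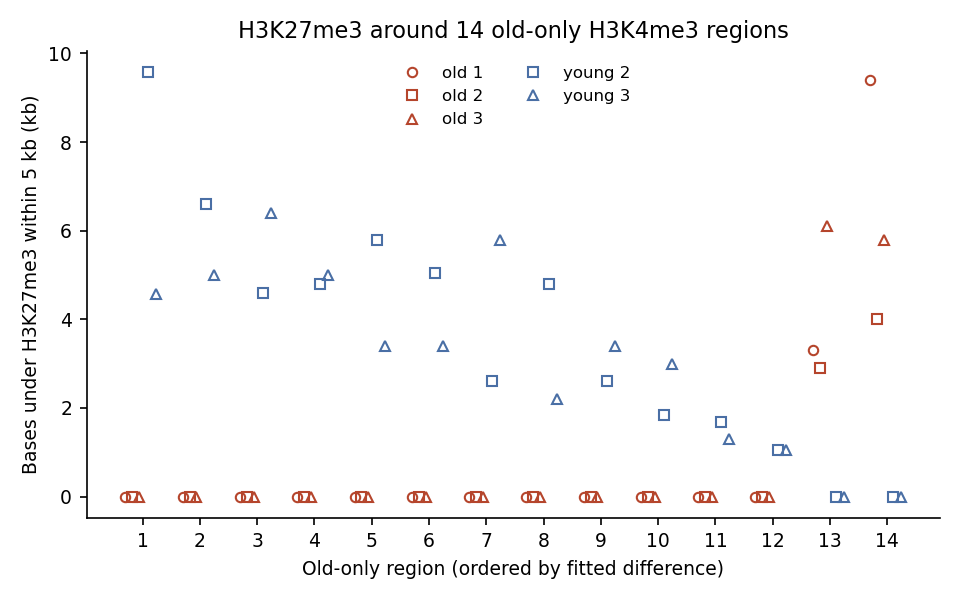
Kilobases under H3K27me3 islands within 5 kb of the 14 old-only regions called by limma without young replicate 1, in old replicates 1, 2 and 3 and in young replicates 2 and 3. Regions 1 to 12 have 0 in all old libraries and 13 and 14 have 0 in both young libraries shown.

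Counted without a fit, the window coverage of all 3 old libraries lay below that of both young replicates 2 and 3 at 50 old-only regions (6.31%; background 2.88% of all merged regions) and above both at 23 (2.9%; background 2.66%). Among the regions with any H3K27me3 within 5 kb in the 5 libraries, the share below was 14.2% of 353 old-only regions, 9.0% of 4401 regions found in all 4 libraries and 7.49% of 494 regions found in both old and 1 young library. It was 11.4% of 264 regions found in 1 old and 1 young library, 6.25% of 272 found in old replicate 7 alone and 7.71% of 597 found in old replicate 8 alone. By score class the old-only share below was 8.16%, 13.5%, 8.86% and 27.5% from lowest to highest, where the last was 22 of 80, and the share of common regions in the same classes was 5.36%, 3.75%, 8.97% and 9.15%. In the third class the old-only share was thus at the level of the common regions, and in the top class the common regions were not of like score. The difference between these shares was not tested. H3K27me3 over the region itself in both young replicates 2 and 3 and in no old library was found at 12 old-only regions (1.52%; background 1.02%), and in all 3 old and neither of those young libraries at 4 (0.505%; background 0.194%). Young replicate 1 was left out of all these counts.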

How the data were processed

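The authors deposited 1 list per library and no read counts: peaks with MACS names for H3K4me3 and H3K36me3 and SICER-style islands for H3K27me3, each with a score of unstated scale. Per the submitters' processing notes, CASAVA 1.4, MACS and SICER and the mm9 build were used; no source used here says with what thresholds or at what depth. Peaks were listed per library, not pooled. Per the labels' protocols, chromatin was sonicated and libraries were made with a ThruPLEX kit.

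Here the lists were read with pandas 2.3.3 (Python 3.11.15), the 4 H3K4me3 lists were merged, and overlap of at least 1 bp, or a gap of up to 5 kb, was counted per library. Shares were compared with exact permutation tests (numpy 2.4.6) and coverage with limma 3.58.1 (R 4.3.3). A region's score is that of its highest peak. Regions were named by covered length, score, island length, H3K36me3 overlap, closeness to young peaks, clustering and H3K27me3 difference; the 14 called by limma were chosen after their values were seen, and regions on chromosome 18 are counted but not named here. The regions and lists were chosen with earlier results of these data known. Gene names and sequences of mm9 were not used here. The depth of each library is unknown, so no interval for counting error is given.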

Additional observations from a re-analysis of the deposited data

How the results depend on the processing

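The number of old-only regions depended on the lists: it was 1044 from the 25th percentile of score, 224 at the same number of peaks per list and between 1257 and 3165 with 1 H3K4me3 library left out, which asks for fewer libraries. Old minus young shares, none past the threshold, changed sign with the libraries: leaving out 1 gave -1.73 to 12.7 points for H3K27me3 over the regions, -2.15 to 12.0 within 5 kb, -0.842 to 0.231 for H3K36me3 over them and -4.34 to 4.12 within 5 kb. H3K36me3 over them was 0.446 for the regions of equal list length; within 5 kb it was -0.21 with peaks at or above the median score, -0.0842 for the higher-scoring members and -0.0842 within 2 kb. Old-only minus common shares were 14.1 to 17.3 points (H3K27me3 over), 13.9 to 16.3 (within 5 kb), -2.42 to -1.54 (H3K36me3 over) and -24.9 to -19.0 (within 5 kb) without 1 library, where 5 libraries allow no p below 0.0625. By score class, lowest first and with all 6 libraries, H3K27me3 over was -12.8, -6.11, -11.2 and 10.7 and within 5 kb -11.4, -5.94, -10.2 and 11.8. In the same order H3K36me3 over was 0.198, -0.401, 0.384 and -2.49 and within 5 kb 3.58, 1.9, -1.06 and -23.1, the cause not tested. H3K36me3 over the centre was 0.184, and over the region with peaks at or above the median score -1.49. limma calls for H3K27me3 numbered 274 without young replicate 1, 322 and 134 with pseudocounts of 50 and 1000 bp and 202 over the region itself, and 0 without any other library; among old-only regions they ranged from 0 to 17, and 0 with all 6; the pseudocounts and the region itself without young replicate 1, and all old-only minus common values within 5 kb, were chosen after seeing the data. The replicate block gave 0 limma calls. With it, the exact permutation test gave p = 1.0 for both H3K27me3 shares and 0.75 and 1.0 for H3K36me3. Deviations of old and young libraries correlated at 0.02 to 0.17 for the same replicate number and at -0.14 to 0.06 for different numbers. Correlations this weak, in so few libraries and with young replicates 1 and 4 included, cannot decide whether the numbers pair the libraries.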

Other observations

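The old-only regions were spread over the genome. They made up between 2.45% of all merged H3K4me3 regions on chromosome 16 and 4.93% on chromosome 8, with 70 on chromosome 11 and 0 of 4 regions on chromosome Y. Of the 792, 138 (17.4%) had another old-only region within 100 kb, a share for which no background is given here. The densest group was 5 regions on chromosome X between 7187080 and 7292035, where 4 regions found in all 4 libraries lay among them and none was under H3K27me3. On chromosome 7, 3 old-only regions lay between 75716783 and 75739272 with no region found in all 4 libraries among them, no H3K27me3 and no H3K36me3 within 5 kb. On chromosome 9, 3 lay between 20841617 and 20958290, of which 1 was under H3K27me3 and 1 had H3K36me3 within 5 kb. The H3K27me3 domain at chr6:6795401-6845400, 50000 bp long, held 2 old-only regions and no region found in all 4 libraries.

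Within title number 18, which old replicate 7 and young replicate 7 share, 2028 regions were found in the old library and not in the young one, and 662 in the young library and not in the old one. The list of the old library was also the longer of the pair.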
